A study of Mus musculus with 12 samples.

Results

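The genes described here are 7 Krüppel-like factor (KLF) genes, *Klf2*, *Klf3*, *Klf4*, *Klf6*, *Klf9*, *Klf10* and *Klf13*, in follicular B cells, the main recirculating mature B cell of the spleen. They were picked as named members of the family, with earlier results of these data known, and were found in the gene tables by symbol. All 7 were present in the table for 0 h and in that for 4 h, among 12837 genes found in both and 13574 found in either, and all 7 passed the filter on low counts in every comparison. The cells (CD21/35- CD23+) were sorted from spleens of adult male mice that carried either an intact *Gpr174* gene (Gpr174+/Y, WT) or a germline allele in which tdTomato takes the place of its only coding exon (Gpr174-/Y, KO), so that every cell type of the KO mice lacked the receptor. Cells were frozen once sorted (0 h, here fresh WT and fresh KO) or following 4 h in complete RPMI with serum and no added stimulus (cultured WT and cultured KO), and each of the 4 groups held 3 libraries. The study had 3 mice of each genotype, and whether libraries with the same number at 0 h and 4 h came from the same mouse was not stated, so the p-values measure the spread between libraries.

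KLF proteins are transcription factors that bind GC-rich and CACCC-type DNA through zinc fingers at their C-terminal end. In resting lymphocytes, KLF2 and KLF4 are known as factors that hold cells out of the cell cycle, and KLF2 also governs which homing receptors a lymphocyte carries. GPR174 is a receptor coupled to Gαs, whose engagement raises cAMP. cAMP acts on many genes through the factor CREB, which binds the cAMP response element (CRE) and, more weakly, its shorter core.

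The promoter windows of the members whose levels differed most clearly by genotype after culture, *Klf2* and *Klf13*, are shown first. The sequences are from RefSeq (GRCm38.p6, the build also called mm10), 5′ to 3′ on the strand of the gene. Each runs from 250 bases before the RefSeq start to 30 (*Klf2*) or 1 (*Klf13*) bases before it. *Klf2* is at chr8:72318812-72319032 on the plus strand and *Klf13* at chr7:63938916-63939165 on the minus strand. Capitals mark the short CRE (TGACG) in both, a MEF2 motif in *Klf2* and a CACCC box in *Klf13*.
Klf2 promoter: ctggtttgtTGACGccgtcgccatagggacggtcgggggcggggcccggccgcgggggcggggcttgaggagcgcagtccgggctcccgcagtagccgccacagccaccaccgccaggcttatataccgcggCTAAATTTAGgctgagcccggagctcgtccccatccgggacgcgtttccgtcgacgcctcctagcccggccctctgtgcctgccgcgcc
Klf13 promoter: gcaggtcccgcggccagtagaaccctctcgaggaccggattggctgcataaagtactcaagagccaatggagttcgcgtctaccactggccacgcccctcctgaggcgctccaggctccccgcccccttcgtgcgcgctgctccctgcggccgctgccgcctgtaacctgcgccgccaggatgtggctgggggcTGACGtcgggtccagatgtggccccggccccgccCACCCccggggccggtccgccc
Of the 7 members, 6 had an entry in the RefSeq promoter set, which covers 250 bases before to 50 after the start, and *Klf10* had none. The short CRE was searched as TGACG on both strands and was present in 5 of these 6, all but *Klf6*, against 20.8% of 32851 promoters of the same length. The first base of the match lay 241 bases upstream of the start in *Klf2*, 232 in *Klf4*, 46 in *Klf9* and 56 in *Klf13*, and 19 bases downstream of it in *Klf3*. The full CRE, TGACGTCA, which contains the short one, was in 0 of the 6 and in 1.79% of all promoters. The windows of *Klf4* (chr4:55532691-55532720, minus strand) and *Klf9* (chr19:23141167-23141196, plus strand) are shown with the short CRE in capitals, which in *Klf4* reads as its reverse complement, CGTCA.
Klf4 short CRE: gctgcctggctggCGTCAcggcctggcccc
Klf9 short CRE: ggggcctggattgTGACGtgatgggattct
The MEF2 motif was in 3.19% of all promoters and among the members in *Klf2* alone, 118 bases upstream. The CACCC box (CACCC, either strand) was in 57.5% of all promoters and in *Klf2*, *Klf3*, *Klf9* and *Klf13*, with 5 matches in *Klf3*. The FOXO motif TGTTTAC was in *Klf9* (3.65% of all promoters), and the E-box CACGTG in *Klf4* and *Klf6* (7.15%). These matches describe letters in a window and are not sites of measured binding.

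Library totals ran from 6098941 to 11618787 counts, and fresh WT held the largest of them. *Gpr174* was counted at 149.5 to 157 CPM (reads scaled to library size) in fresh WT and at 73.4 to 76.7 CPM in fresh KO, and at 153 to 169 CPM in cultured WT and 105 to 118 CPM in cultured KO, so no KO library overlapped a WT library of its time. The table gives a single count for the whole gene, including the part outside the replaced exon. B cell markers (7 of 8 genes in both tables, *Ighd* not among the rows) summed to 8032 to 8793 CPM at 0 h, and *Cd3d* and the other T cell markers (7 of 7) to at most 11.6 CPM in any library. The sums of T cell, plasma cell, neutrophil, erythroid and macrophage markers overlapped between the genotypes at both times. B cell markers summed to 5746 to 6016 CPM in cultured WT and to 7116 to 7307 CPM in cultured KO. CPM values of the members are scaled by TMM factors over all 12 libraries and given as mean ± SD (n = 3), and log2 fold changes are given ± their standard error.

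Per kilobase of exon, the members fell into a high and a low set in every group. In fresh WT, *Klf2* stood at 144 ± 1.06 CPM per kb, above 98.8% of the 11522 genes with a length. *Klf6* followed at 65.7 ± 4.41, *Klf13* at 36.4 ± 0.292 and *Klf3* at 23.4 ± 1.69 CPM per kb. *Klf4* at 3.45 ± 0.515, *Klf10* at 2.79 ± 0.512 and *Klf9* at 1.2 ± 0.638 CPM per kb were far lower. Neighbours in this order did not overlap between libraries except *Klf4* and *Klf10*. *Klf2* held the top place in all 4 groups, while *Klf4* moved from the fifth place in fresh WT to the last in cultured KO, at 0.726 ± 0.196 CPM per kb, where its libraries overlapped those of *Klf9*. The place of *Klf3* depended on the length used. With its longest transcript in place of all exons together it stood at 50.5 ± 3.64 CPM per kb in fresh WT, above *Klf13* at 42.9 ± 0.344.

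**Figure D1:**
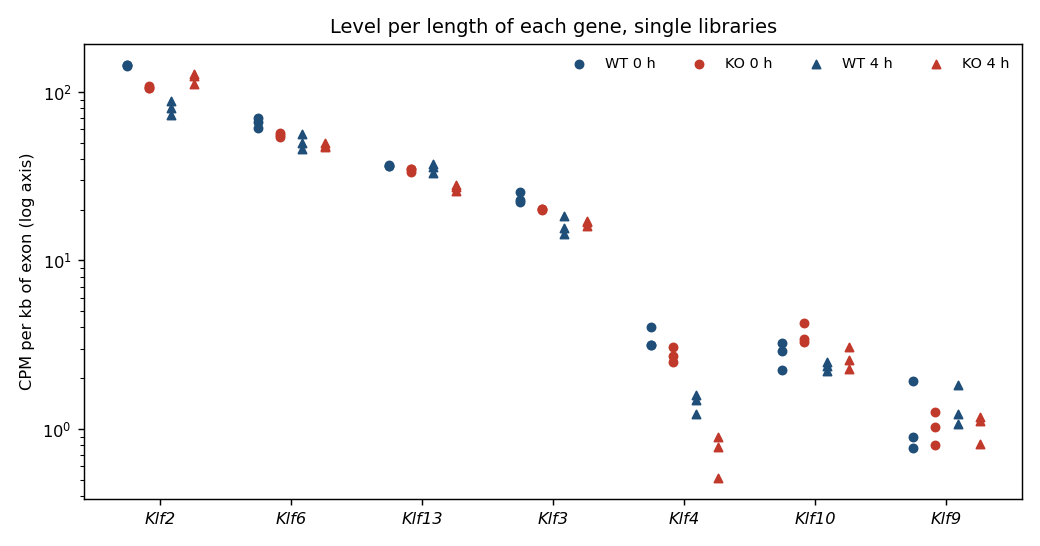
Level of the 7 members in CPM per kb of exon (vertical axis, logarithmic) for each of the 12 libraries, with WT in blue, KO in red, 0 h as circles and 4 h as triangles. *Klf2* is highest in every group, from 80.4 CPM per kb on average in cultured WT to 144 in fresh WT, and *Klf4*, *Klf10* and *Klf9* lie below 5 CPM per kb.

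Of the level per length summed over the 13 KLF genes found in both tables, the 7 members made up 90.4% to 93.3% on average in each group. *Klf2* alone was 48.0 ± 0.587% of that sum in fresh WT and 43.0 ± 0.598% in fresh KO, and after culture it was 39.4 ± 2.19% in WT and 51.9 ± 1.03% in KO (SD, n = 3). The order of the genotypes was thus opposite at the 2 times. *Klf13* was 12.1 ± 0.262% in fresh WT and 13.9 ± 0.0878% in fresh KO, then 17.4 ± 0.205% in cultured WT and 11.7 ± 0.271% in cultured KO. Shares of a sum move together, so a fall in *Klf2* raises the other shares.

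*Klf2* (chr8:72319033-72321656, plus strand, GRCm38) was the member whose level turned most between the genotypes. It was counted at 265.9, 264.8 and 268.6 CPM in fresh WT replicates 1 to 3 and at 201.1, 195.2 and 194.3 CPM in fresh KO. After 4 h it was counted at 163.8, 134.3 and 147.6 CPM in WT and at 234.2, 229.5 and 206.0 CPM in KO. WT libraries were all above KO libraries at 0 h and all below them at 4 h, and cultured KO still lay below fresh WT. The means were 266.4 ± 1.96 CPM in fresh WT, 196.9 ± 3.67 in fresh KO, 148.6 ± 14.7 in cultured WT and 223.2 ± 15.1 in cultured KO (SD, n = 3). In bulk RNA such as this, fewer cells of a kind and less RNA per cell cannot be told apart.

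The genotype comparison at 0 h asked what differed before culture. *Klf2* was 1.35-fold higher in WT, a log2 fold change (WT over KO) of 0.43 ± 0.05 with a 95% interval of 0.32 to 0.54 and an edgeR quasi-likelihood adjusted p of 0.000342. By p it ranked 8 among 11345 genes. It was the 1 member of 7 called at an adjusted p under 0.05, where 0.987% of all genes tested were called, and it kept the call in all 13 alternative fits. The genotype difference at 0 h came with one in some cell cycle genes. *Mki67* was at 128 ± 32.3 CPM in WT and 299 ± 53.3 in KO. The 13 cell cycle entry genes, *Mki67* among them, summed to 420.5 to 521 CPM in WT and to 636 to 817 CPM in KO. Of the 13, 3 were called, all higher in KO, where 0.987% of all genes tested were called. Markers of germinal centre B cells (5 of 5) summed to 232 to 291 CPM in WT and 279 to 328 CPM in KO. The part of these in the *Klf2* difference was not tested.

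At 4 h the *Klf2* difference had the other sign. *Klf2* was 1.5-fold higher in KO, a log2 fold change of -0.59 ± 0.07 (95% interval -0.75 to -0.43, edgeR adjusted p = 6.43e-05). Of the 7 members, 3 were called at this time (*Klf2*, *Klf4* and *Klf13*), where 10.9% of 11123 genes were called, and *Klf2* was the 1 of them higher in KO. Marker sums of other B cell subsets were also higher in KO than in WT at 4 h, at 368 to 417 against 233 to 277 CPM for marginal zone B cells (5 of 5 genes) and at 224 to 245 against 137 to 161 CPM for germinal centre B cells. In each list 2 of 5 genes were called higher in KO and 0 in WT, and each sum was mostly 1 gene. These were *Cr2*, which encodes the CD21/35 of the sort gate, at 299.6 ± 22.3 against 159 ± 26.6 CPM, and *Bcl6*, at 191 ± 14.4 against 127 ± 5.49 CPM. The marginal zone markers *Dtx1* (0.22 ± 0.07, adjusted p = 0.0782) and *S1pr3* (0.27 ± 0.33, adjusted p = 0.701) had the other sign. The part of these cells in the *Klf2* difference was not tested.

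Culture was followed within each genotype, and the difference of the culture changes was tested as an interaction. In WT cells *Klf2* fell by 0.84 ± 0.07 on the log2 scale (4 h over 0 h, edgeR adjusted p = 1.63e-09), a 1.79-fold decrease. In KO cells it rose by 0.18 ± 0.07 with an edgeR adjusted p of 0.0499, at the edge of the threshold. KO libraries did not overlap between the times, but the call was kept in 7 of 19 alternative fits, with adjusted p-values from 0.00228 to 0.195. It was lost when any 1 fresh library of either genotype, cultured WT replicate 3, or cultured KO replicate 1 or 2 was left out, at adjusted p-values of 0.0511 to 0.195. Choices of processing lost it too: RLE size factors (adjusted p = 0.0505), no filter (0.0539) and at least 1 CPM in 3 libraries (0.0517). The interaction was -1.02 ± 0.09 (95% interval -1.22 to -0.83), so culture moved *Klf2* in WT down by 2.03-fold relative to KO. Its edgeR adjusted p was 1.85e-07, and the call held in all 18 alternative fits.

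**Figure D2:**
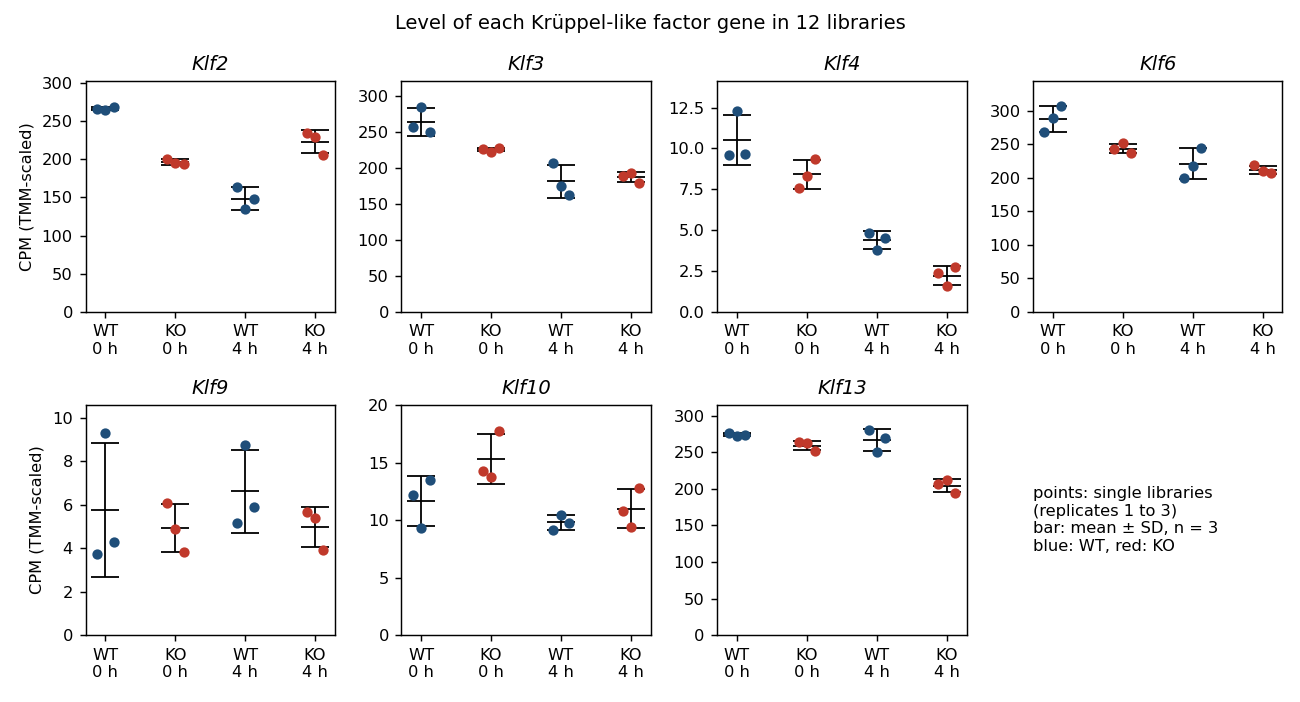
CPM of each member (vertical axis, from 0, a scale for each gene) in the fresh WT, fresh KO, cultured WT and cultured KO groups (horizontal axis), with single libraries as points and the mean ± SD as bars. *Klf2* is higher in WT at 0 h and higher in KO at 4 h, *Klf13* is lowest in cultured KO, and *Klf9* groups overlap throughout.

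*Klf13*, which encodes a factor known as an activator of the chemokine gene *Ccl5* in late activated T cells, fell in culture in KO cells, where *Klf2* did not. The gene is at chr7:63886351-63938915 (minus strand, GRCm38). It was counted at 276.5, 272.3 and 273.5 CPM in fresh WT and at 263.5, 262.2 and 251.5 CPM in fresh KO. After 4 h it was counted at 280.4, 250.2 and 268.8 CPM in WT and at 206.3, 212.3 and 194.1 CPM in KO. The cultured KO libraries lay below all 9 others, which stayed within 250.2 to 280.4 CPM. At 4 h the log2 fold change (WT over KO) was 0.38 ± 0.06 (95% interval 0.25 to 0.52, edgeR adjusted p = 0.000661), called in all 13 alternative fits. At 0 h it was 0.07 ± 0.05 (adjusted p = 0.589), although the genotypes did not overlap.

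In KO cells *Klf13* fell by 0.34 ± 0.06 on the log2 scale in culture (edgeR adjusted p = 9.79e-05, called in all 19 alternatives), and in WT cells its change was -0.04 ± 0.06 (adjusted p = 0.618). The interaction was 0.30 ± 0.08 (95% interval 0.14 to 0.47, edgeR adjusted p = 0.0214). It was called in 16 of 18 alternative fits, and lost without fresh KO replicate 1 (adjusted p = 0.078) and without cultured KO replicate 3 (adjusted p = 0.0758). *Klf2* and *Klf13* were the 2 members of 7 called for the interaction, where 6.39% of 11572 genes were called, and their signs were opposite. An antisense gene, *E030018B13Rik*, overlaps *Klf13* and held at most 78 counts in a library, against at least 1428 for *Klf13*. *Ccl5* itself had a log2 fold change of 0.28 ± 0.47 at 4 h (adjusted p = 0.784). *Klf4* and *Klf13* were higher in WT at 4 h, and so was the sum of the dendritic cell markers (4 of 5 genes). It ran from 8.23 to 13.1 CPM in WT and from 3.03 to 5.44 CPM in KO, with *Clec9a* at 0 or below the row minimum at 4 h. Of the 2 markers tested at 4 h, only *Flt3* was called, at 6.65 ± 1.7 against 2.33 ± 0.774 CPM (1.53 ± 0.30, edgeR adjusted p = 0.00344). *Zbtb46* was not (0.75 ± 0.36, adjusted p = 0.229). *Xcr1* and *Siglech* averaged under 1 CPM and were not tested. The part of dendritic cells in the levels of *Klf4* and *Klf13* was not tested.

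*Klf4* (chr4:55527143-55532466, minus strand), a factor known to restrain B cell proliferation, was the member that culture lowered most. It was counted at 9.57, 12.3 and 9.65 CPM in fresh WT, 7.58, 8.3 and 9.36 in fresh KO, 4.84, 3.75 and 4.54 in cultured WT, and 2.37, 1.55 and 2.72 in cultured KO. All libraries of 4 h were below all libraries of 0 h, and at each time all WT libraries were above all KO libraries. These levels rest on 13 to 110 reads a library, with the fewest in cultured KO. *Klf4* fell by 1.26 ± 0.22 on the log2 scale in WT (edgeR adjusted p = 0.000115) and by 1.93 ± 0.25 in KO (adjusted p = 5.07e-06). Both calls were kept in all 19 alternatives, and the interaction of 0.67 ± 0.34 was not called (adjusted p = 0.315).

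At 4 h *Klf4* was 1.99-fold higher in WT, a log2 fold change of 0.99 ± 0.30 (edgeR adjusted p = 0.0457). This call was fragile, since it was kept in 4 of 13 alternative fits. The adjusted p was 0.116 by DESeq2, 0.0529 with library totals only, 0.052 without the filter on low counts and 0.0579 with replicate number as a block. Without 1 library it ranged from 0.0481 to 0.194, and only the fit without cultured WT replicate 2 kept the call. At 0 h the log2 fold change was 0.31 ± 0.19 (adjusted p = 0.536). Macrophages and monocytes are cells in which *Klf4* is known to be expressed. Their markers, 5 of 10 listed symbols, summed to 53.8 to 66.9 CPM at 0 h and to 22.6 to 41.6 CPM at 4 h. *C1qa*, *C1qb*, *C1qc* and *Cd14* were at 0 or below the row minimum at 4 h. The listed symbols *Adgre1* and *Emr1* name the same gene, which was counted here as *Emr1*. Culture lowered 3 of the 5 in each genotype. *Cd68* was not called in either (-0.19 ± 0.16 in WT, -0.08 ± 0.16 in KO). *Emr1* was not called in WT (-0.29 ± 0.38) and rose in KO (1.13 ± 0.40, edgeR adjusted p = 0.0462). The part of such cells in the *Klf4* fall was not tested.

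*Klf3*, which encodes a repressor that recruits CtBP proteins, and *Klf6*, a broadly expressed factor induced early by many stimuli, fell in culture in both genotypes. *Klf3* (chr5:64803388-64832901, plus strand) was counted at 256.4, 285.2 and 249.3 CPM in fresh WT, 226.9, 222.5 and 227.4 in fresh KO, 207.2, 174.1 and 161.9 in cultured WT, and 188.6, 193.3 and 179.3 in cultured KO. *Klf6* (chr13:5861482-5870394, plus strand) was counted at 269.1, 289.0 and 307.8 CPM in fresh WT, 243.5, 251.5 and 236.7 in fresh KO, 200.1, 218.5 and 245.4 in cultured WT, and 218.6, 209.6 and 206.9 in cultured KO. For both genes WT was above KO without overlap at 0 h, and the genotypes overlapped at 4 h.

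In culture *Klf3* fell by 0.55 ± 0.07 on the log2 scale in WT (edgeR adjusted p = 5.31e-06) and by 0.27 ± 0.07 in KO (adjusted p = 0.0106). *Klf6* fell by 0.38 ± 0.07 in WT (edgeR adjusted p = 0.00015) and by 0.20 ± 0.07 in KO (adjusted p = 0.0343). The WT calls were kept in all 19 alternative fits. The KO call of *Klf6* was kept in 14 of 19, and lost with library totals only (-0.11, adjusted p = 0.27) and without fresh KO replicate 1 or 2 or cultured KO replicate 2 or 3 (adjusted p = 0.0913 to 0.112). That of *Klf3* was kept in 17 of 19, and lost with library totals only (adjusted p = 0.0564) and without cultured KO replicate 3 (adjusted p = 0.0549). The fall was larger in WT in value for both, but the interactions of -0.28 ± 0.10 for *Klf3* (adjusted p = 0.144) and -0.18 ± 0.10 for *Klf6* (adjusted p = 0.366) were not called. At 0 h the log2 fold changes (WT over KO) were 0.22 ± 0.06 for *Klf3* (adjusted p = 0.0943) and 0.24 ± 0.06 for *Klf6* (adjusted p = 0.0735), and DESeq2 called both, at adjusted p-values of 0.0493 and 0.0171. At 4 h they were -0.05 ± 0.08 (adjusted p = 0.766) and 0.07 ± 0.07 (adjusted p = 0.634).

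*Klf10*, first described as a gene induced early by TGF-β, and *Klf9*, a gene induced by glucocorticoids, had low counts. *Klf10* (chr15:38291463-38300706, minus strand) was counted at 12.2, 9.3 and 13.5 CPM in fresh WT, 14.3, 13.8 and 17.8 in fresh KO, 9.2, 10.5 and 9.81 in cultured WT, and 10.8, 9.44 and 12.8 in cultured KO. KO was above WT without overlap at 0 h, and cultured KO was below fresh KO without overlap. The log2 fold change at 0 h was -0.39 ± 0.18 (edgeR adjusted p = 0.368) and that of culture in KO was -0.48 ± 0.17 (adjusted p = 0.0507), which 7 of 19 alternative fits called. *Klf10* was not called in culture in WT (-0.25 ± 0.18, adjusted p = 0.296), by genotype at 4 h (-0.16 ± 0.17, adjusted p = 0.645) or for the interaction (0.22 ± 0.25, adjusted p = 0.721).

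*Klf9* (chr19:23141226-23168134, plus strand) was counted at 3.72, 9.3 and 4.29 CPM in fresh WT, 6.07, 4.89 and 3.85 in fresh KO, 5.16, 8.76 and 5.91 in cultured WT, and 5.66, 5.38 and 3.94 in cultured KO. All groups overlapped, and replicate 2 was the highest library of both WT groups. *Klf9* was not called in any of the 5 comparisons, with edgeR adjusted p-values of 0.86 at 0 h, 0.389 at 4 h, 0.659 for culture in WT, 0.981 in KO and 0.895 for the interaction. The 95% interval at 4 h ran from -0.15 to 0.93, which holds both 0 and the 0.38 of *Klf13*, at 29 to 56 reads a library.

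Across the members, culture in WT called 4 of 7 (*Klf2*, *Klf3*, *Klf4* and *Klf6*), all lowered, where 18% of genes were called lowered and 33.1% were called in either direction. Culture in KO called 5 of 7, with *Klf3*, *Klf4*, *Klf6* and *Klf13* lowered and *Klf2* raised, where 13% of genes were called lowered, 10.3% raised and 23.3% in either direction. The median culture change of the 7 was -0.38 on the log2 scale in WT and -0.27 in KO, and the median over all genes tested was 0.0048 and 0.0016. Libraries did not overlap between genotypes in 6 of 7 members at 0 h, all but *Klf9*, where 18.3% of all genes did not overlap, and in 3 of 7 at 4 h, where 27.9% did not. Between times they did not overlap in 4 of 7 in WT (40.9% of all genes) and in 6 of 7 in KO (41.9%).

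**Figure D3:**
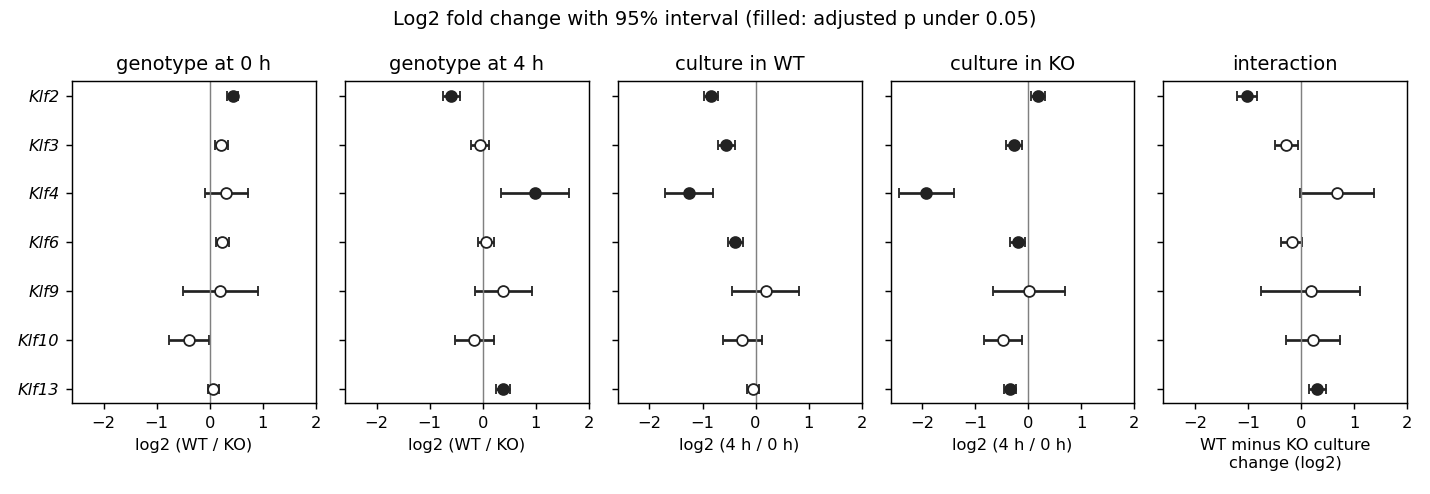
Log2 fold change (horizontal axes, with the 95% interval as bars) of each member in the genotype comparisons at 0 h and 4 h (WT over KO), culture in WT and KO (4 h over 0 h) and the interaction (WT change minus KO change), with filled points where the adjusted p was under 0.05. *Klf2* changes sign between the genotype comparisons, from 0.43 to -0.59, and *Klf4* has the widest shift in culture, -1.26 in WT and -1.93 in KO.

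**Figure D4:**
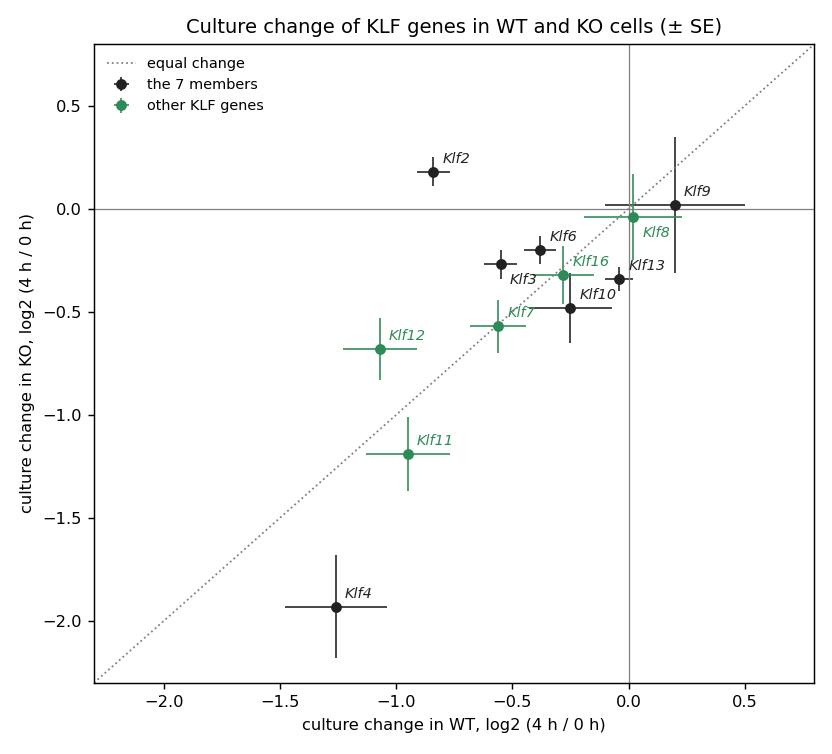
Culture change (log2, 4 h over 0 h) in KO (vertical axis) against that in WT (horizontal axis) for the 7 members in black and 5 other KLF genes in green, with standard errors as bars and a dotted line at equal change. *Klf2* lies far above the line, at -0.84 in WT and 0.18 in KO, and *Klf13* below it, at -0.04 and -0.34.

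Of the 6 other KLF genes measured, 3 fell in culture in both genotypes, and none was called by genotype. On the log2 scale *Klf7* fell by 0.56 ± 0.12 in WT cells and by 0.57 ± 0.13 in KO cells (edgeR adjusted p = 0.0014 and 0.00215). *Klf11* fell by 0.95 ± 0.18 and by 1.19 ± 0.18 (adjusted p = 0.000321 and 4.3e-05), and *Klf12*, a CtBP-dependent repressor like *Klf3*, fell by 1.07 ± 0.16 and by 0.68 ± 0.15 (adjusted p = 1.47e-05 and 0.00255). *Klf8* (6.41 ± 0.391 CPM in fresh WT), *Klf16* (20.9 ± 3.16 CPM) and *Klf1*, an erythroid factor (0.753 ± 0.819 CPM), were called in none of the comparisons. *Klf5*, *Klf14*, *Klf15* and *Klf17* were not among the rows, each of which sums to at least 10 reads over the 6 libraries of its time, and were not analysed here. Of the other KLF genes and the related SP genes (19 listed), 0 of 11 tested were called by genotype at 0 h, 0 of 10 at 4 h and 0 of 11 for the interaction, and 4 of 11 were lowered and 0 raised by culture in each genotype. Beside these and the list counts that follow, 15.1% of all genes tested rose and 18% fell in WT culture, 10.3% rose and 13% fell in KO culture, and genotype called 0.987% at 0 h and 10.9% at 4 h.

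Of 8 genes known to act upstream of *Klf2*, the MEK5 and ERK5 kinases and the MEF2 and FOXO factors, none was called at 0 h, and at 4 h 2 were higher in WT and 0 in KO. *Mef2d*, an activator of *Klf2* downstream of ERK5, was at 253 ± 0.266 CPM in fresh WT, 235 ± 6.47 in fresh KO, 313 ± 10.3 in cultured WT and 214 ± 6.9 in cultured KO. Its log2 fold change at 4 h was 0.55 ± 0.06 (edgeR adjusted p = 8.49e-06) and its interaction 0.44 ± 0.07 (adjusted p = 0.000356), signs opposite to those of *Klf2*. *Mef2c*, needed for B cell responses to antigen, had a log2 fold change of 0.21 ± 0.05 at 4 h (adjusted p = 0.0209). Culture raised 3 of the 8 in WT and lowered 1 in KO. Of 13 cofactors and ubiquitin ligases of KLF proteins, such as CtBP, Sin3 and p300 genes, 0 were called by genotype at either time or for the interaction, and culture changed 7 in WT (3 raised, 4 lowered) and 4 in KO (2 each way).

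Of 12 genes listed as KLF targets, 0 of 11 tested were called at 0 h, and at 4 h 0 of 12 were higher in WT and 2 in KO. *Itgb7*, the integrin chain of gut homing that KLF2 is known to promote in B cells, fell in culture from 194 ± 16.8 to 89.1 ± 1.86 CPM in WT and from 197 ± 10.1 to 126 ± 11.1 CPM in KO. Its log2 fold change at 4 h was -0.50 ± 0.07 (edgeR adjusted p = 0.000224). It was also called for the interaction, at -0.48 ± 0.10 (adjusted p = 0.0049), the same sign as *Klf2*. *S1pr1*, the egress receptor activated by KLF2, had a log2 fold change of -0.09 ± 0.06 at 4 h (adjusted p = 0.455). In culture 6 of the 12 targets rose and 3 fell in WT (33.1% of all genes called), and in KO 4 rose and 2 fell (23.3%), with the list's median change at 0.32 and 0.22.

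Of 19 lymphocyte quiescence genes, 0 were called at 0 h, and at 4 h 3 were higher in WT and 1 in KO. Those higher in WT were *Tob2*, an antiproliferative gene (0.58 ± 0.08, edgeR adjusted p = 8.98e-05), *Btg2*, of the same family (0.33 ± 0.07, adjusted p = 0.00484), and *Tsc22d3*, which encodes GILZ (0.33 ± 0.08, adjusted p = 0.0153). *Tsc22d3* had the same value at 0 h, just short of a call (0.33 ± 0.08, adjusted p = 0.0505), and an interaction of -0.01 ± 0.12 (adjusted p = 0.985). *Bach2*, a repressor that holds mature B cells from plasma cell differentiation, was higher in KO, at 1116 ± 50.1 against 792 ± 54.8 CPM (-0.50 ± 0.06, adjusted p = 6.7e-05). *Tob2* (0.64 ± 0.11, adjusted p = 0.00055) and *Bach2* (-0.52 ± 0.08, adjusted p = 0.000141) were also the 2 genes of the list called for the interaction. In culture 8 of the 19 rose and 4 fell in WT, and in KO 6 rose and 6 fell.

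Of 13 cell cycle entry genes, 3 were higher in KO and 0 in WT at 0 h, and the same counts were found at 4 h, with 0 called for the interaction. At 4 h these were *Mki67*, a marker of cycling cells (-0.83 ± 0.17, edgeR adjusted p = 0.00424), *Ccna2*, the S-phase cyclin (-0.80 ± 0.19, adjusted p = 0.0141), and *Ccne1*, a cyclin of the G1 to S transition (-0.56 ± 0.11, adjusted p = 0.00412). *Mki67* and *Ccna2* were among those called at 0 h, at -1.23 ± 0.14 (adjusted p = 0.000342) and -1.46 ± 0.21 (adjusted p = 0.00172). Both were therefore higher in KO at both times, while *Klf2* was lower in KO at 0 h and higher in KO at 4 h. Culture raised 1 and lowered 3 of the 13 in WT and lowered 3 in KO.

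The genes whose levels followed each member most closely were taken by Pearson's r of log2 CPM over the 12 libraries, as a description, since all points share their libraries and groups. Closest to *Klf2* were *March1*, a ubiquitin ligase that removes MHC class II and CD86 from the surface (r = 0.947), and *Ptk2b*, a tyrosine kinase (r = 0.936). *March1* averaged 387 CPM in fresh WT, 321 in fresh KO, 229 in cultured WT and 334 in cultured KO, the same order of groups as for *Klf2*. For *Klf13* they were *Tgfb1* (r = 0.96), at 141, 129, 135 and 99.2 CPM in these groups, and *Nab2*, a corepressor of EGR factors (r = 0.943). For *Klf4* they were *Runx3* (r = 0.978), at 111, 102, 76.9 and 64.4 CPM, and *Adap1* (r = 0.977), for *Klf3* *Usf1* (r = 0.959) and *Rin3* (r = 0.958), and for *Klf6* *Maz* (r = 0.945) and *Cggbp1* (r = 0.943). For the low genes they were *Cecr5* (r = 0.941) and *Chek2* (r = 0.901) for *Klf9*, and *Cdh17* (r = 0.935) and *S100a13* (r = 0.898) for *Klf10*. Among the members themselves, *Klf4* went with *Klf3*, *Klf6* and *Klf13* at r = 0.79 each and *Klf2* with *Klf3* at 0.72, while *Klf2* and *Klf13* were at -0.08.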

How the data were processed

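Whole-transcriptome amplification (NuGEN Ovation RNA-seq System V2), KAPA Hyper prep kits and NEXTflex adapters were used by the authors, who sequenced single-end reads on a HiSeq2500. Per the submitters' processing notes, reads were aligned to mm10 with STAR and counted with HTSeq, and DESeq2 is also listed. The gene annotation, strand setting and tool versions were not given in the sources used here, so reads of overlapping antisense genes could not be told apart. The authors deposited raw counts per gene, with no normalization, in a table for 0 h (13269 genes) and another for 4 h (13142 genes), and the smallest row sum was 10 in each. Molecular identifiers were not used, so errors cover counting and replicate spread as the reads show them. Replicate libraries differed beyond sampling noise (chi-square per degree of freedom 1.943 to 9.3), so all 12 were kept.

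The members and gene lists were chosen with earlier results of these data known. Genotype was tested within each time, with 6 libraries a fit, and culture and the interaction over all 12 libraries and the genes in both tables. Counts were filtered with filterByExpr, scaled by TMM and tested with edgeR 4.0.16 (glmQLFit, glmQLFTest) in R 4.3.3, with Benjamini-Hochberg adjustment over all genes tested and calls at an adjusted p under 0.05. The steps were tested on simulated data, with planted changes of a single size in genes above a minimum count. That test does not cover smaller changes or genes with few reads. CPM come from the 12-library scaling, with a prior count of 2 for log2 CPM. The alternatives were DESeq2 1.42.0, RLE size factors, library totals only, no filter, at least 1 CPM in 3 libraries, replicate number as a block, other groups in the fit, and each library left out.

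All 7 members are named in every comparison. In each other list, up to 3 called genes of each direction with the largest 4 h genotype change are named, and all other measured KLF genes, except that 1 called gene is not reported here. *S1pr1* and *Ccl5* were named outside this rule, after their values were seen, since they are the textbook targets of KLF2 and KLF13. Likeness names the 2 genes with the highest r for each member. Positions and lengths are from GENCODE vM21, and promoters from RefSeq.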

Additional observations from a re-analysis of the deposited data

Results flagged for a closer look

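The culture change of 2 members differed between the genotypes by a test of the difference itself. For *Klf2* the change in WT minus that in KO was -1.02 on the log2 scale, with a fall in WT and a small rise in KO. For *Klf13* it was 0.30, with a fall in KO and a change in WT of -0.04.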

How the results depend on the processing

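Of the values of single members under the alternatives, 520 kept their direction and their side of the threshold, 30 lost a call, 11 gained one and 13 changed sign. The *Klf2* and *Klf13* genotype differences at 4 h, the *Klf2* difference at 0 h and the *Klf2* interaction kept their calls in every alternative run. The causes of the changes below were not tested. DESeq2 called 3 members at 0 h (against 1), and library totals only called 3 in KO culture (against 5). Leaving out 1 library gave 1 to 2 members at 0 h (2 without fresh WT replicate 1), 2 to 3 at 4 h, 3 to 6 in KO culture (3 without fresh KO replicate 1 or 2 or cultured KO replicate 2) and 1 to 3 for the interaction. Signs that changed were all of uncalled values. With library totals only, the *Klf13* change in WT culture was 0.07. With 1 library left out, *Klf13* in WT culture ran from -0.08 to 0.0029, *Klf3* at 4 h from -0.16 to 0.03 and *Klf6* at 4 h from -0.01 to 0.13. *Klf9* ran from -0.31 to 0.43 at 0 h, from -0.04 to 0.71 in WT culture, from -0.14 to 0.2 in KO culture and from -0.06 to 0.69 for the interaction. Library totals only moved the median culture change of all genes from 0.00483 to 0.114 in WT and from 0.00162 to 0.0916 in KO, and the split of genes raised and lowered in WT from 1750 and 2080 to 3001 and 1500, and in KO from 1193 and 1504 to 2168 and 1101. Over all genes, 112 were called at 0 h, and 26 to 161 with 1 library left out.

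Deviations from the group mean were correlated between libraries of the same number. Over time within a genotype r was -0.0402 to 0.152. Between the genotypes, which are different mice, it was -0.0986 to 0.0728. Whether a number stands for the same mouse at 0 h and 4 h was not stated, so the numbers were not taken as pairs. In WT each library correlated best with its own number at the other time, and in KO 2 of 3 did. With replicate number as a block, 1 member was called at 0 h, 2 at 4 h, 4 in WT culture, 6 in KO culture and 2 for the interaction. Depth limits *Klf4* (13 to 110 reads a library) and *Klf9* (28 to 83) most.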
